A study of Mus musculus with 29 samples.

Results

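Resident and recruited macrophage markers were followed in the mouse heart under a C26 tumour and under REV-ERBα delivered to the liver. The set held 10 genes, Lyve1, Cd163, Mrc1, F13a1, Folr2, Csf1r, Cd68, Lgals3, Cx3cr1 and Ccr2, which were read by symbol from a count table of 20411 genes. All 10 were present, and all 10 were among the 12928 genes with enough counts to be tested. Each gene was followed across 29 hearts in 4 groups.

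All animals were wildtype BALB/c mice that had been given an adeno-associated virus (AAV) intravenously. Its cargo, GFP or REV-ERBα, was driven by Tbg, a promoter specific to hepatocytes, so the transgene was aimed at the liver and not at the heart. The C26_REVERBa group (10 hearts) had the REV-ERBα vector and, 10 days later, C26 colon carcinoma cells under the skin, a model of cachexia. The C26_GFP group (10 hearts) had the GFP vector and the same cells. The PBS_REVERBa group (5 hearts) had the REV-ERBα vector and the PBS_GFP group (4 hearts) the GFP vector, both followed by saline in place of tumour cells. The sources used here state neither age, nor sex, nor when the hearts were taken. Each heart carried its own animal number in the labels.

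Macrophages of the healthy heart are largely long-lived resident cells. They sit around vessels and between cardiomyocytes, take up debris and old mitochondria, and depend on signalling through the CSF1 receptor. In the mouse many of them carry the scavenger and uptake receptors LYVE1, CD163, CD206 (Mrc1) and folate receptor beta (Folr2), and they express the transglutaminase factor XIII-A (F13a1). Monocytes that enter from the blood carry CCR2, and macrophages that arise from them in injured tissue often express galectin-3 (Lgals3). Several of these genes are also used outside macrophages: Lyve1 in lymphatic endothelium, F13a1 in platelets and their precursors, and Lgals3 in many stressed or epithelial cells.

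Levels are given as CPM, the usual share of a gene in its library's counts, with library totals scaled by TMM factors. Fold changes are log2 values with their standard error from edgeR's quasi-likelihood test, and adjusted p means the Benjamini-Hochberg value over all 12928 genes, with 0.05 as the threshold. Library totals ran between 3376113 and 7619837 counts in C26_REVERBa, between 5684452 and 16853646 in C26_GFP, between 3207497 and 5355029 in PBS_REVERBa and between 3467940 and 14740569 in PBS_GFP. The summed level of 10 cardiomyocyte markers lay between 33860 and 51340 CPM over the 29 libraries. Each of the 10 macrophage genes had at least 2 counts in each library. C26_REVERBa replicate 9 stood apart from its group. Its summed level of 6 adipocyte markers was 350.9 CPM against a group median of 1.99 CPM, and that of 5 epicardial and mesothelial markers was 110.4 CPM against a group median of 21.0 CPM. In 8 libraries the mean of 5 atrial markers exceeded 5 log2 CPM: 3 of C26_REVERBa, replicate 9 among them, 3 of C26_GFP, 1 of PBS_REVERBa and 1 of PBS_GFP. Hepatocyte markers (6 genes) summed to 111.2 CPM in C26_REVERBa replicate 10, 59.98 CPM in C26_REVERBa replicate 3 and 93.7 CPM in PBS_GFP replicate 2. T and NK cell markers (10 genes) summed to 14.4 CPM in C26_GFP replicate 7 and 15.2 CPM in C26_GFP replicate 10, against at most 7.84 CPM in any of the other libraries. Most of the sum in replicates 7 and 10 came from a single gene, Cd3e. The values of Lyve1 and Lgals3 without these libraries are given beside their results; these removals were chosen after the data were seen.

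Levels can be compared between genes only per length, so RPKM (CPM divided by the gene's length in kilobases) was used for the order of the genes. In C26_REVERBa hearts F13a1 was first at 14.8 ± 1.91 RPKM and Lyve1 second at 12.7 ± 3.88 RPKM (SD, n = 10 each). In C26_GFP hearts Lyve1 came first at 18.6 ± 2.52 RPKM, followed by F13a1 at 18.01 ± 3.12 RPKM and Cd163 at 12.2 ± 1.86 RPKM (SD, n = 10 each). The gap between Lyve1 and F13a1 was smaller than the SD of Lyve1 in both tumour groups, but larger than the SD of F13a1 in C26_REVERBa hearts. Without a tumour the 4 leading genes lay close together. In PBS_REVERBa hearts F13a1, Folr2, Csf1r and Lyve1 averaged 9.64 ± 2.75, 8.91 ± 2.09, 8.31 ± 1.59 and 8.15 ± 2.03 RPKM (SD, n = 5 each), and no neighbouring pair differed by more than its SDs. In PBS_GFP hearts Lyve1, F13a1, Folr2 and Csf1r averaged 10.5 ± 1.80, 10.1 ± 2.07, 9.67 ± 2.24 and 9.42 ± 0.84 RPKM (SD, n = 4 each), again with no gap beyond the SDs. Cx3cr1, Lgals3 and Ccr2 took the last 3 places in each of the 4 groups. In C26_GFP hearts Lgals3 averaged 4.36 ± 2.97 RPKM, Ccr2 2.41 ± 1.33 RPKM and Cx3cr1 1.95 ± 0.75 RPKM (SD, n = 10 each). In PBS_GFP hearts the same genes averaged 1.28 ± 0.61, 1.27 ± 0.40 and 2.87 ± 0.75 RPKM (SD, n = 4 each).

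**Figure D1:**
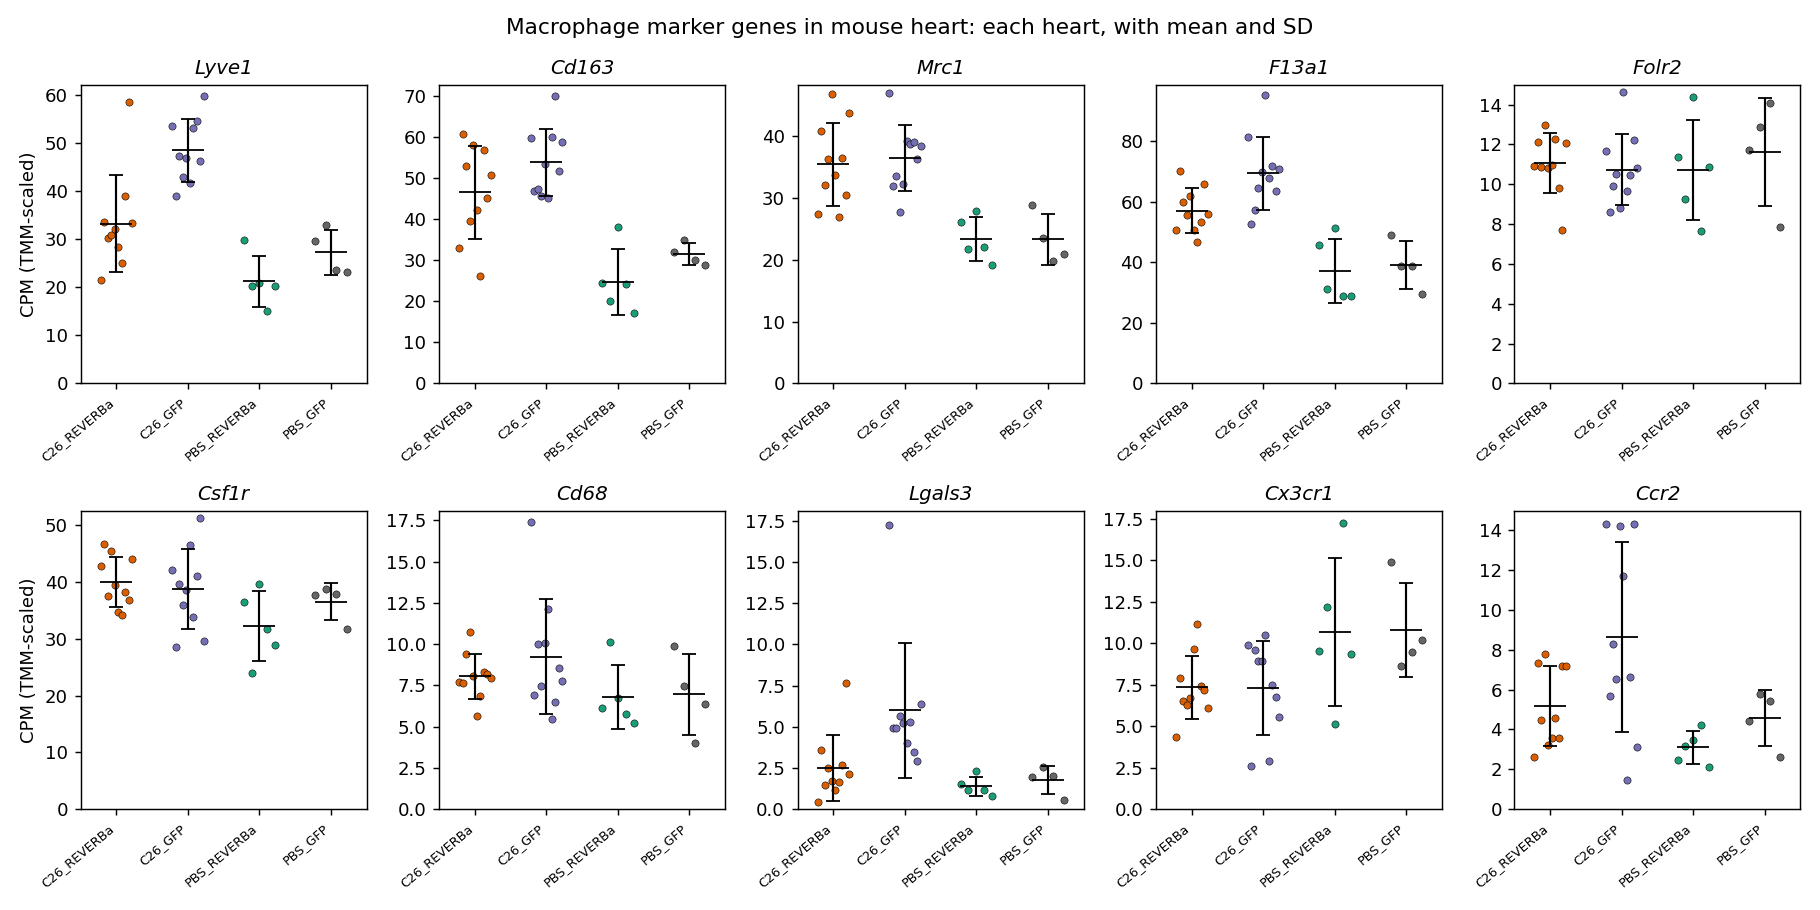
Level of each of the 10 macrophage marker genes in each heart, in CPM after TMM scaling, by group. Points are hearts, horizontal lines are group means and error bars are SDs. For Lyve1, Cd163, F13a1 and Lgals3 the C26_GFP points all lie above the PBS_GFP points, and for Folr2, Csf1r and Cd68 the 4 groups overlap.

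The first question was what the tumour does to these genes in mice given the GFP vector. In C26_GFP hearts the uptake receptor genes Lyve1, Cd163 and Mrc1, the transglutaminase gene F13a1 and the galectin gene Lgals3 were higher than in PBS_GFP hearts. The first 4 were between 1.56 and 1.78 times as high and Lgals3 was 3.39 times as high, as ratios of the group means. The folate receptor gene Folr2 and the general macrophage genes Csf1r and Cd68 did not pass. Of the 10 genes, 5 rose, none fell and 5 did not pass, where 14.2% of all tested genes rose and 14% fell. An unadjusted edgeR p under 0.05 was found for 7 of the 10 and for 5055 of all 12928 tested genes. The median change of the 10 was 0.68, against 0 over all genes. Without the 3 libraries with high hepatocyte markers, PBS_GFP replicate 2 among them, the same 5 genes rose. In whole heart tissue, a change in the number of cells of a type and a change in RNA per cell cannot be told apart.

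Lyve1 (NM_053247, chromosome 7, 110850607 to 110862953, minus strand, mm10) encodes a receptor for hyaluronan. Its lowest, median and highest values in C26_GFP hearts were 39.0, 47.1 and 59.8 CPM. In PBS_GFP hearts it had 29.5, 32.8, 23.5 and 23.3 CPM. The groups did not overlap, which was so for 5.65% of all genes in this direction. The change was 0.80 ± 0.18 (edgeR adjusted p = 0.00119).

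Cd163, Mrc1 and F13a1 followed the same course. Cd163 (NM_053094, chromosome 6, 124304651 to 124330527, plus strand), the receptor for complexes of haemoglobin and haptoglobin, had a lowest value of 45.2, a median of 52.6 and a highest value of 70.2 CPM in C26_GFP hearts. In PBS_GFP hearts it had 32.1, 35.0, 30.1 and 28.8 CPM. Again no heart of one group reached the other, and the change was 0.76 ± 0.18 (edgeR adjusted p = 0.00209). Mrc1 (NM_008625, chromosome 2, 14229414 to 14332023, plus strand), the mannose receptor that clears glycoproteins and collagen fragments, had 27.7, 37.4 and 47.0 CPM as its lowest, median and highest values in C26_GFP hearts. Its PBS_GFP hearts had 28.96, 23.6, 19.8 and 20.9 CPM. Of the 10 C26_GFP hearts, 9 lay above the highest PBS_GFP heart, and the change was 0.61 ± 0.14 (edgeR adjusted p = 0.00173). F13a1 (NM_001166391, chromosome 13, 36867178 to 37050244, minus strand), whose enzyme cross-links fibrin and matrix proteins, had 52.5, 68.8 and 95.1 CPM as lowest, median and highest values in C26_GFP hearts. In PBS_GFP hearts it had 49.1, 38.7, 38.7 and 29.7 CPM. The groups did not overlap and the change was 0.81 ± 0.15 (edgeR adjusted p = 0.00022).

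Lgals3 (NM_010705, chromosome 14, 47373860 to 47386167, plus strand) encodes galectin-3, a lectin that binds β-galactosides. It was rare: its counts ran between 18 and 117 per C26_GFP library and were 28, 27, 7 and 2 in the 4 PBS_GFP libraries. In CPM its lowest, median and highest values were 2.90, 5.08 and 17.3 in C26_GFP hearts, against 1.94, 2.56, 2.01 and 0.58 in PBS_GFP hearts. The groups did not overlap, and the highest C26_GFP heart, replicate 1, lay far above the rest. The change was 1.63 ± 0.48 (edgeR adjusted p = 0.0116), and without that heart it was 1.32 ± 0.41 (edgeR adjusted p = 0.0172). Epicardial and mesothelial cells also express it. Their 5 markers summed to between 10.5 and 57.4 CPM in C26_GFP hearts, with a median of 26.7, and to between 8.87 and 30.5 CPM in PBS_GFP hearts, with a median of 13.02. The highest C26_GFP sum was again that of replicate 1. None of the 5 markers passed, though their median log2 change was 1.89 in C26_GFP against PBS_GFP hearts. Their part in the Lgals3 values was not tested. Without the 5 libraries above 10000000 counts, which left 2 PBS_GFP libraries, the Lgals3 change was 2.30 ± 0.87 and did not pass (edgeR adjusted p = 0.0751).

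Folr2, Csf1r, Cd68, Cx3cr1 and Ccr2 did not pass between these groups. Folr2 (NM_001303239, chromosome 7, 101839988 to 101857190, minus strand) averaged 10.7 ± 1.78 CPM (SD, n = 10) in C26_GFP and 11.6 ± 2.69 CPM (SD, n = 4) in PBS_GFP hearts, a change of -0.12 ± 0.15 (edgeR adjusted p = 0.561). Csf1r (NM_001037859, chromosome 18, 61105572 to 61131139, plus strand) averaged 38.7 ± 7.08 CPM (SD, n = 10) in C26_GFP and 36.5 ± 3.25 CPM (SD, n = 4) in PBS_GFP hearts. Its C26_GFP values lay on both sides of the PBS_GFP range, 5 above and 2 below, and the change was 0.08 ± 0.12 (edgeR adjusted p = 0.682). Cd68 (NM_001291058, chromosome 11, 69664213 to 69666170, minus strand), a glycoprotein of the lysosome membrane, stood at 0.33 ± 0.23 (edgeR adjusted p = 0.286). The chemokine receptors pointed in opposite directions. Ccr2 (NM_009915, chromosome 9, 124102183 to 124109140, plus strand) had a lowest value of 1.46, a median of 7.48 and a highest value of 14.3 CPM in C26_GFP hearts, against 4.43, 5.77, 5.45 and 2.62 CPM in PBS_GFP hearts. Its C26_GFP hearts were the most spread of the 4 groups, and 7 of 10 lay above the PBS_GFP range. The Ccr2 value was 0.89 ± 0.39 and did not pass (edgeR adjusted p = 0.0831). It passed without C26_GFP replicate 7, at 1.01 ± 0.34 (edgeR adjusted p = 0.0256), without C26_GFP replicate 10, at 0.99 ± 0.37 (edgeR adjusted p = 0.0443), without both, at 1.12 ± 0.30 (edgeR adjusted p = 0.00765), and with the atrial marker level as a covariate, at 0.94 ± 0.33 (edgeR adjusted p = 0.0312). Ccr2 still did not pass in 27 of 29 single-library removals and in 11 of 14 other settings. Without the hearts rich in atrial markers it was 0.78 ± 0.45 (edgeR adjusted p = 0.224). Without the libraries above 10000000 counts it was 0.93 ± 0.62 (edgeR adjusted p = 0.33). Replicates 7 and 10 had the 2 lowest Ccr2 values of their group, 1.46 and 3.14 CPM, and its highest sums of T and NK cell markers, 14.4 and 15.2 CPM against a group median of 3.41 CPM. Most of that sum was Cd3e, a subunit of the T cell receptor complex, at 13.5 and 14.1 CPM. The other 9 genes of the list had no count in some libraries, so the label of these 2 hearts rests on Cd3e. Cd3e rose in C26_GFP against PBS_GFP hearts, by 1.97 ± 0.69 (edgeR adjusted p = 0.0324), and without these hearts it stood at 0.85 ± 0.42 (edgeR adjusted p = 0.145). The part of T and NK cells in the Ccr2 values was not tested. Cx3cr1 (NM_009987, chromosome 9, 120048683 to 120068296, minus strand), the receptor of fractalkine, stood at -0.55 ± 0.27 (edgeR adjusted p = 0.126), with 5 of 10 C26_GFP hearts below the lowest PBS_GFP heart.

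**Figure D2:**
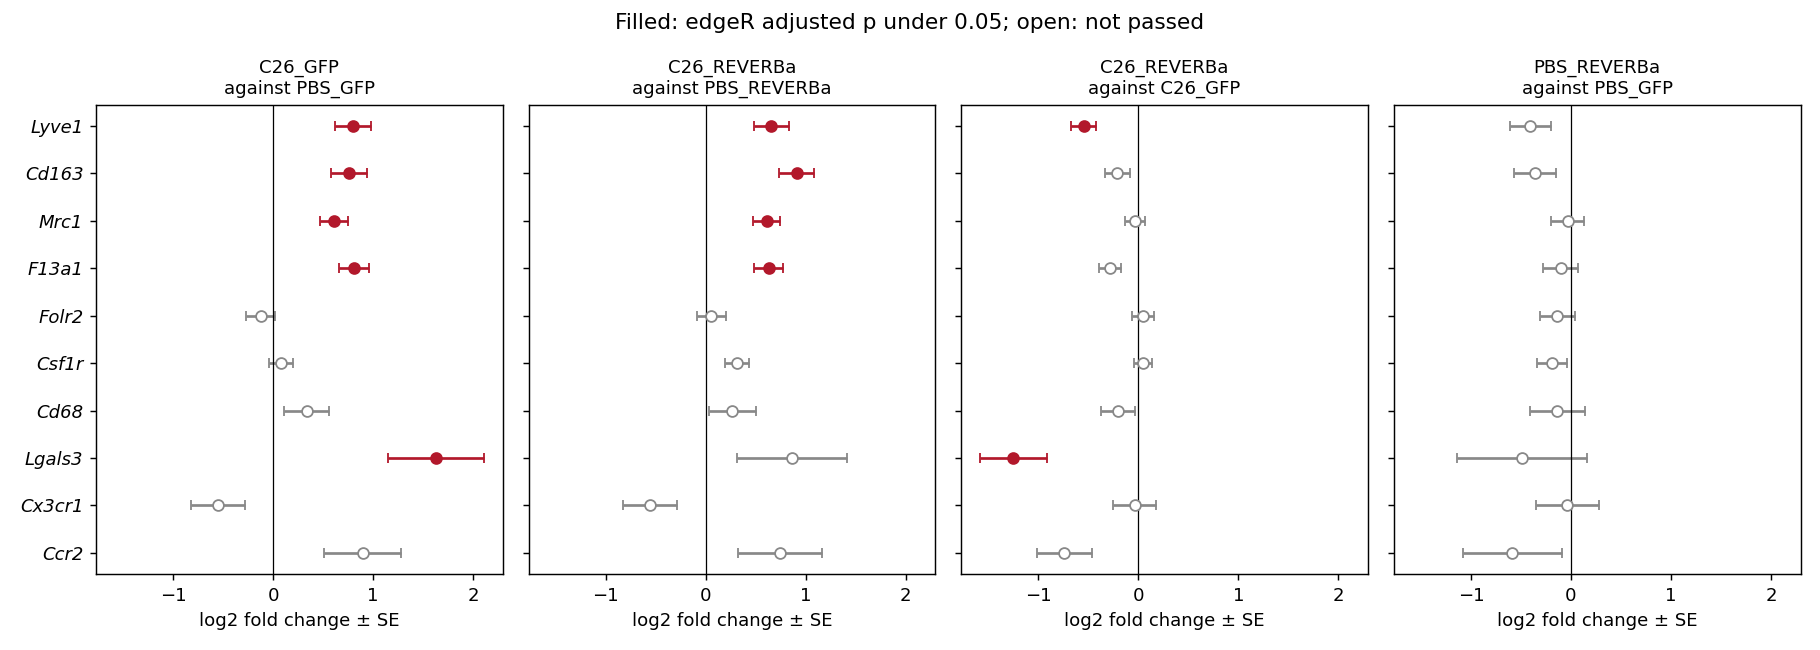
Log2 fold change of each gene in 4 comparisons, with the standard error derived from edgeR's F as bars. Filled points passed at an adjusted p under 0.05. Lyve1, Cd163, Mrc1 and F13a1 are filled in both comparisons of tumour with saline, Lgals3 is filled for the GFP vector, and Lyve1 and Lgals3 are filled, on the negative side, for REV-ERBα against GFP with a tumour.

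The stretch just before the start of the genes that rose with the tumour is shown here because these genes share a call in the comparison of C26_GFP with PBS_GFP. The RefSeq table of GRCm38.p6 promoters had an entry at the deposited start for 8 of the 10 genes; Lyve1 and Csf1r were not among them. For each gene the 250 bases before the start are printed 5′ to 3′ on the gene's own strand. Capitals mark AGGAAG, letters found in sites of ETS family factors, on either strand. Shorter letter strings were not searched. The windows are chr6:124304401-124304650 (plus) for Cd163, chr2:14229164-14229413 (plus) for Mrc1, chr13:37050245-37050494 (minus) for F13a1 and chr14:47373610-47373859 (plus) for Lgals3.
Cd163: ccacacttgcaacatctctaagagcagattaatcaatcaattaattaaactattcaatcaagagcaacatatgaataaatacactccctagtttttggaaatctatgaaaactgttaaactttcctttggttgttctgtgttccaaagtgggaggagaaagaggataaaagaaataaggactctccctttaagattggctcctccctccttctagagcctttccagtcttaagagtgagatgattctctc
Mrc1: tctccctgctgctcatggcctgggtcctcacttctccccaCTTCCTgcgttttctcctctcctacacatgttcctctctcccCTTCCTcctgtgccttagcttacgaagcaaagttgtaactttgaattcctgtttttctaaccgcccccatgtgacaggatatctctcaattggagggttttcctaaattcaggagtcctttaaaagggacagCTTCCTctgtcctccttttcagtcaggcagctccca
F13a1: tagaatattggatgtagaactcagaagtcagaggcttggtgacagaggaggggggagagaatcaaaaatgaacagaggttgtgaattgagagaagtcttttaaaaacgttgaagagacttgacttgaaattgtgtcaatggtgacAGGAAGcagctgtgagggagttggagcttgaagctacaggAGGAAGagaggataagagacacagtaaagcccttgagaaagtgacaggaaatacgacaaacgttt
Lgals3: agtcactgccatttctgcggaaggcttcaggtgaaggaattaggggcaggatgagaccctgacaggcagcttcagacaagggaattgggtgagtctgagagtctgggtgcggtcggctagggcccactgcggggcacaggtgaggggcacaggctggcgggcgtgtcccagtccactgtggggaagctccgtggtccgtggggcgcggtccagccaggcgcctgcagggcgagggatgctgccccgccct

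AGGAAG was found in the windows of Mrc1, F13a1 and Folr2, 3 of 8, against 29.5% of all 32851 promoters of that table. In Mrc1 it stood on the minus strand at bases 210 to 205, 168 to 163 and 36 to 31 before the start. In F13a1 it stood on the plus strand at bases 105 to 100 and 65 to 60. These letters were searched after the data were seen. Longer letter strings were also searched on both strands: the PU.1 string GAGGAAGT, which contains AGGAAG, the MAF string TGCTGAC, the STAT string TTCNNNGAA, the glucocorticoid receptor core ACANNNTGT, the REV-ERB and ROR string TAGGTCA and the C/EBP string TTGCNNAA. Only TTGCNNAA had a match, in Cd68 alone, against 9.56% of all promoters. The other 5 strings, found in 2.44%, 3.81%, 7.02%, 5.84% and 2.23% of all promoters in the order named, had no match in the 8 windows. A match describes letters and not binding, and a string without a match is only absent from this window.

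The next question was whether the hepatocyte REV-ERBα vector changed these genes in tumour-bearing mice. Lyve1 and Lgals3 were lower in C26_REVERBa than in C26_GFP hearts, at 0.69 and 0.42 times the C26_GFP mean. Cd163, Mrc1, Folr2, Csf1r and Cd68 did not pass. Of the 10 genes, 2 fell and none rose, where 3.45% of all tested genes fell and 3.75% rose. An unadjusted edgeR p under 0.05 was found for 4 of the 10 and for 3136 of all 12928 tested genes. The C26_GFP hearts stand in this comparison and in that of C26_GFP with PBS_GFP, so the values of the 2 comparisons are not independent. The median change of the 10 was -0.21, against 0.00 over all genes. Both calls, and most calls over all genes, were lost when the libraries with high hepatocyte or high T and NK cell markers were left out.

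Lyve1 had a lowest value of 21.4, a median of 31.6 and a highest value of 58.6 CPM in C26_REVERBa hearts, against 39.0, 47.1 and 59.8 CPM in C26_GFP hearts. Of the 10 C26_REVERBa hearts, 9 lay below the lowest C26_GFP heart, and the exception was replicate 9, the library with high adipocyte and mesothelial markers. The change was -0.55 ± 0.13 (edgeR adjusted p = 0.0143), and without replicate 9 it was -0.68 ± 0.10 (edgeR adjusted p = 0.000336). Without the 3 libraries with high hepatocyte markers it was -0.54 ± 0.14 (edgeR adjusted p = 0.0574), and without the 2 with high T and NK cell markers -0.48 ± 0.13 (edgeR adjusted p = 0.0781). Lgals3 had 0.44, 1.91 and 7.68 CPM as lowest, median and highest values in C26_REVERBa hearts, against 2.90, 5.08 and 17.3 CPM in C26_GFP hearts. Its C26_REVERBa libraries held between 3 and 48 counts, 8 of 10 hearts lay below the C26_GFP range, and the highest was again replicate 9. The change was -1.25 ± 0.33 (edgeR adjusted p = 0.0258) and -1.63 ± 0.31 without replicate 9 (edgeR adjusted p = 0.00187). The call ended without C26_GFP replicate 1, at -0.94 ± 0.29 (edgeR adjusted p = 0.0573), without C26_REVERBa replicate 7, at -1.19 ± 0.35 (edgeR adjusted p = 0.0586), and when only the 2 groups were fitted, at -1.25 ± 0.36 (edgeR adjusted p = 0.0607). It also ended without the 3 libraries with high hepatocyte markers, at -1.16 ± 0.37 (edgeR adjusted p = 0.0967), and without the 2 with high T and NK cell markers, at -1.26 ± 0.36 (edgeR adjusted p = 0.0869).

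Over all genes, 931 were called between these groups, 70 without the libraries with high hepatocyte markers and 38 without those with high T and NK cell markers. Hepatocyte markers summed to between 0.89 and 111.2 CPM in C26_REVERBa hearts, with a median of 10.8, and to between 0.64 and 33.2 CPM in C26_GFP hearts, with a median of 1.84. Each of the 6 hepatocyte genes had no count in some libraries, and none of the 5 tested passed here. T and NK cell markers summed to between 1.98 and 7.84 CPM in C26_REVERBa hearts and to between 2.66 and 15.2 CPM in C26_GFP hearts. Of these 10 genes only Cd3e had counts in each library and was tested, at -1.33 ± 0.46 (edgeR adjusted p = 0.0705). The part of both cell types in the calls was not tested. Of 11 genes of the lists described further on that were called between these groups, Kit passed in both removals and Vsig4 without the hepatocyte-rich libraries, while 9 passed in neither. All 11 were called without C26_REVERBa replicate 9.

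Ccr2 averaged 5.16 ± 2.003 CPM in C26_REVERBa and 8.64 ± 4.76 CPM in C26_GFP hearts (SD, n = 10 each). Every C26_REVERBa heart lay within the C26_GFP range, and the value of -0.74 ± 0.28 did not pass (edgeR adjusted p = 0.0959). It passed without C26_GFP replicate 7, at -0.85 ± 0.24 (edgeR adjusted p = 0.049), without C26_GFP replicates 7 and 10, at -0.96 ± 0.22 (edgeR adjusted p = 0.0489), and with the atrial marker level as a covariate, at -0.77 ± 0.24 (edgeR adjusted p = 0.0438). Ccr2 still did not pass in 28 of 29 single-library removals and in 11 of 14 other settings. Without the hearts rich in atrial markers it was -0.76 ± 0.33 (edgeR adjusted p = 0.15). Without the libraries above 10000000 counts it was -0.56 ± 0.31 (edgeR adjusted p = 0.261). F13a1 averaged 57.0 ± 7.37 CPM in C26_REVERBa and 69.4 ± 12.03 CPM in C26_GFP hearts (SD, n = 10 each), at -0.28 ± 0.11 (edgeR adjusted p = 0.0988). Cd163 averaged 46.6 ± 11.4 CPM in C26_REVERBa and 54.0 ± 8.22 CPM in C26_GFP hearts (SD, n = 10 each), at -0.21 ± 0.13 (edgeR adjusted p = 0.321). Mrc1 stood at -0.03 ± 0.10, Csf1r at 0.05 ± 0.09, Folr2 at 0.04 ± 0.11, Cd68 at -0.20 ± 0.17 and Cx3cr1 at -0.03 ± 0.21, with edgeR adjusted p-values between 0.48 and 0.948.

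Without a tumour, the vector was followed by no call. In PBS_REVERBa against PBS_GFP hearts, edgeR called 0 of the 10 genes and 0% of all genes, 0 of the 10 had an unadjusted p under 0.05, and DESeq2 called 0 of the 10 and 1 gene in all. Lyve1 had 29.8, 20.3, 20.9, 15.1 and 20.2 CPM in PBS_REVERBa hearts, against 29.5, 32.8, 23.5 and 23.3 CPM in PBS_GFP hearts. Of the 5 PBS_REVERBa hearts, 4 lay below the PBS_GFP range, and the value was -0.41 ± 0.21 (edgeR adjusted p = 1). Cd163 had 24.6, 20.0, 38.1, 24.3 and 17.1 CPM in PBS_REVERBa hearts, against 32.1, 35.0, 30.1 and 28.8 CPM in PBS_GFP hearts. Here 4 hearts lay below and 1 above the PBS_GFP range, and the value was -0.36 ± 0.21 (edgeR adjusted p = 1). Lgals3 had 1.53, 1.16, 2.32, 1.15 and 0.78 CPM in PBS_REVERBa hearts, within the PBS_GFP range, on between 4 and 10 counts a library. The median of the 10 values was -0.16, against 0.00 over all genes.

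Whether the vector's effect differed with the tumour was tested as an interaction. edgeR called 0 of the 10 genes, 0 of them had an unadjusted p under 0.05, and DESeq2 called 0 of them, with 15 genes in all. For Lyve1 the difference of the vector effect with a tumour minus that without one was -0.14 ± 0.24 (edgeR adjusted p = 0.884), and for Lgals3 it was -0.77 ± 0.75 (edgeR adjusted p = 0.745). So the vector effect on Lyve1 and Lgals3, past the threshold with a tumour and not past it without, was not shown to differ between those settings.

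The tumour was also compared with saline in mice that all had the REV-ERBα vector. Lyve1, Cd163, Mrc1 and F13a1, which had risen in GFP mice, were higher in C26_REVERBa than in PBS_REVERBa hearts, between 1.52 and 1.88 times as high as ratios of the means. Of the 10 genes 4 rose and none fell, where 4.05% of all tested genes rose and 3.19% fell. The median of the 10 was 0.62, against 0.00 over all genes. An unadjusted edgeR p under 0.05 was found for 6 of the 10 and for 3056 of all 12928 tested genes. These groups share no heart with the GFP groups.

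Cd163 had 26.2, 48.0 and 60.8 CPM as lowest, median and highest values in C26_REVERBa hearts, against 24.6, 20.0, 38.1, 24.3 and 17.1 CPM in PBS_REVERBa hearts. Of 10 C26_REVERBa hearts, 8 lay above the PBS_REVERBa range, and the change was 0.91 ± 0.18 (edgeR adjusted p = 0.0016). Mrc1 had 26.9, 35.0 and 46.9 CPM in C26_REVERBa hearts, against 26.1, 21.7, 27.9, 22.03 and 19.2 CPM in PBS_REVERBa hearts. Here too 8 of 10 lay above the range, and the change was 0.61 ± 0.14 (edgeR adjusted p = 0.00606). F13a1 had 46.5, 55.7 and 70.0 CPM in C26_REVERBa hearts, against 45.7, 31.3, 51.3, 28.7 and 28.8 CPM in PBS_REVERBa hearts, with 7 of 10 above the range. Its change was 0.63 ± 0.14 (edgeR adjusted p = 0.00738). Lyve1 also had 7 of 10 C26_REVERBa hearts above the PBS_REVERBa range and changed by 0.66 ± 0.17 (edgeR adjusted p = 0.0209). That call did not hold without PBS_REVERBa replicate 2, 4 or 5 (0.65, 0.55 and 0.64, edgeR adjusted p = 0.0534, 0.0784 and 0.0598), without the 8 hearts rich in atrial markers (0.50 ± 0.17, edgeR adjusted p = 0.0919) or when only these 2 groups were fitted (0.66 ± 0.20, edgeR adjusted p = 0.0563). Without C26_REVERBa replicate 9 the Lyve1 value was 0.53 ± 0.14 and passed (edgeR adjusted p = 0.0221).

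The remaining 6 genes did not pass between these groups. Lgals3 averaged 2.50 ± 2.02 CPM (SD, n = 10) in C26_REVERBa and 1.39 ± 0.59 CPM (SD, n = 5) in PBS_REVERBa hearts, at 0.86 ± 0.55 (edgeR adjusted p = 0.354). Without C26_REVERBa replicate 9 the Lgals3 value was 0.49 ± 0.50 (edgeR adjusted p = 0.599). Csf1r averaged 40.02 ± 4.48 CPM (SD, n = 10) in C26_REVERBa and 32.2 ± 6.16 CPM (SD, n = 5) in PBS_REVERBa hearts, at 0.32 ± 0.12 (edgeR adjusted p = 0.107). Ccr2 stood at 0.74 ± 0.42, Cd68 at 0.27 ± 0.23, Folr2 at 0.06 ± 0.15 and Cx3cr1 at -0.55 ± 0.27, with edgeR adjusted p-values between 0.208 and 0.859.

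Reads of each gene per Csf1r read in the same heart show the markers against a receptor that macrophages share, and library scaling cancels in this ratio. Csf1r was chosen for it after its values were seen, so the ratios are a description. The Lyve1 ratio lay between 0.5 and 1.59 in C26_REVERBa hearts, with a median of 0.779, and between 0.476 and 0.843 in PBS_REVERBa hearts, with a median of 0.698. The highest C26_REVERBa ratio was that of replicate 9, and the next was 1.02. The Lyve1 ratios of C26_GFP hearts, between 0.893 and 2.02, all lay above those of PBS_GFP hearts, between 0.621 and 0.846. The Cd163 ratio also separated C26_GFP, between 0.971 and 1.99, and PBS_GFP, between 0.795 and 0.908. The F13a1 ratio had medians of 1.42 in C26_REVERBa, 1.82 in C26_GFP, 1.25 in PBS_REVERBa and 1.01 in PBS_GFP hearts. The Folr2 ratio kept medians of 0.274 in C26_REVERBa, 0.281 in C26_GFP, 0.363 in PBS_REVERBa and 0.321 in PBS_GFP hearts, with ranges that overlap in all 4 groups. For Lgals3 the medians were 0.0487 in C26_REVERBa, 0.145 in C26_GFP, 0.042 in PBS_REVERBa and 0.0523 in PBS_GFP hearts.

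**Figure D3:**
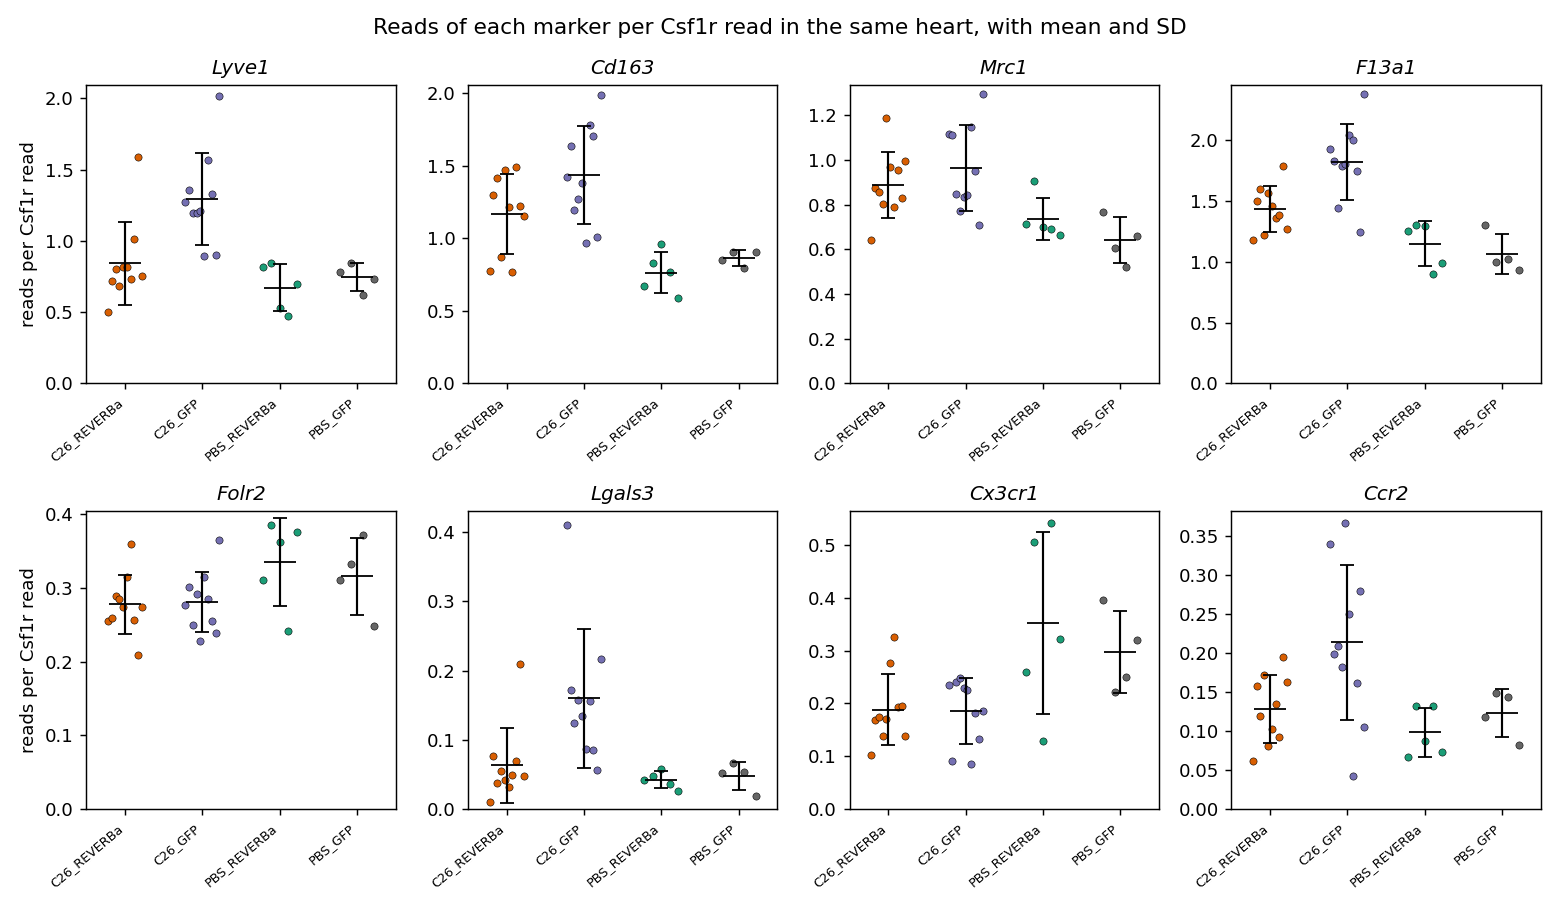
Reads of 8 marker genes per Csf1r read in the same heart (vertical axes, no unit), by group; points are hearts, lines are means and bars are SDs. The Lyve1 and Cd163 ratios of C26_GFP hearts start at 0.893 and 0.971, above the highest PBS_GFP ratios of 0.846 and 0.908, and the Folr2 ratios overlap in all 4 groups.

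Within a tumour group, the markers were compared pair by pair over the hearts, over 45 pairs in each of 2 groups and 90 relations in all. With Pearson's r on log2 CPM and permutation tests of 100000 resamples, no pair passed by r after Benjamini-Hochberg adjustment; 7 pairs in C26_REVERBa and 8 in C26_GFP hearts had an unadjusted p under 0.05. The strongest was Lyve1 with Lgals3 in C26_REVERBa hearts, with r = 0.911 (permutation p = 0.00088, adjusted 0.0792) and rho = 0.915 (permutation p = 4e-04, adjusted 0.036), n = 10. Leaving out the 2 hearts farthest from the Lyve1 median gave r = 0.611. Without replicate 9 alone, a removal chosen after the data were seen, r was 0.827 (permutation p = 0.00759) and rho 0.883 (permutation p = 0.00296), n = 9, both unadjusted. In C26_GFP hearts the same pair had r = 0.321 (permutation p = 0.393, adjusted 0.731) and rho = 0.333 (permutation p = 0.35, adjusted 0.635), n = 10, and r = 0.339 without the 2 farthest. Lyve1 with Cd163 in C26_GFP hearts had r = 0.846 (permutation p = 0.00251, adjusted 0.113) and rho = 0.842 (permutation p = 0.00359, adjusted 0.108), n = 10, and r = 0.928 without the 2 farthest. Among the 5 resident markers Lyve1, Cd163, Mrc1, F13a1 and Folr2, the median r over 10 pairs was 0.378 in C26_REVERBa and 0.537 in C26_GFP hearts. Over all 45 pairs the medians were 0.248 and 0.321. The resident pairs ran between -0.723 and 0.783 in C26_REVERBa and between -0.113 and 0.846 in C26_GFP hearts. The value of -0.723 was that of Lyve1 with Folr2.

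As a description, the genes nearest to each member were those with the highest Pearson r of deviations from the group means over 29 libraries; all genes of a library share its depth and tissue makeup. Nearest to Lyve1 were Grina (0.824), Mmp28 (0.813) and Npc2 (0.785), and nearest to Cd163 were Tgfbr3 (0.803), Fndc3b (0.796) and Scn7a (0.789). Cd163 was itself the third nearest to Mrc1 (0.716), after Eif2ak4 and Egfr. C1qc, a complement gene of macrophages, was second for F13a1 (0.731), after Dse. Nearest to Ccr2 were H2-DMb2 (0.795) and H2-Ab1 (0.77), genes of antigen presentation, and the protease gene Ctsc (0.749). C3ar1, the receptor of complement C3a, was nearest to Cx3cr1 (0.74), and Vcam1 was nearest to Csf1r (0.792). Folr2 was nearest to Sfrp1 (0.814), Cd68 to Dap (0.699) and Lgals3 to Rbm47 (0.774).

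Other macrophage genes were read from lists. Of 20 tested genes that macrophages of any origin express, 8 rose in C26_GFP against PBS_GFP hearts, none fell and 12 did not pass, where 14.2% of all tested genes rose and 14% fell. The list's median was 0.49, against 0 over all genes. C1qb, a subunit of the complement starter C1q, averaged 72.6 ± 9.02 CPM (SD, n = 10) in C26_GFP and 44.8 ± 5.44 CPM (SD, n = 4) in PBS_GFP hearts. Its change was 0.68 ± 0.10 (edgeR adjusted p = 2.2e-05). C1qa rose by 0.49 ± 0.11 and Fcgr2b, the inhibitory Fc receptor, by 0.80 ± 0.17 (edgeR adjusted p = 0.00102 and 0.00103). In C26_REVERBa against C26_GFP hearts 3 of the 20 fell, C1qa by 0.29 on the log2 scale, C1qb by 0.27 and Cd14, a receptor for bacterial lipopolysaccharide, by 0.36 (edgeR adjusted p = 0.0281, 0.0281 and 0.032), where 3.45% of all tested genes fell, and the median of the 20 was -0.23. The summed level of these genes was between 450.3 and 606.3 CPM in C26_REVERBa, 484.1 and 844.1 CPM in C26_GFP, 350.8 and 481.6 CPM in PBS_REVERBa and 428.8 and 544 CPM in PBS_GFP hearts, so the groups overlapped in part.

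Of 16 tested genes on a further list, drawn up for resident macrophages, 7 rose in C26_GFP against PBS_GFP hearts and none fell, where 14.2% of all tested genes rose. The median was 0.32. Gas6, a bridge between dying cells and the receptors that engulf them, averaged 214.3 ± 32.8 CPM (SD, n = 10) in C26_GFP and 141.5 ± 6.66 CPM (SD, n = 4) in PBS_GFP hearts, a change of 0.60 ± 0.12 (edgeR adjusted p = 0.000519). The lectin gene Clec10a rose by 1.31 ± 0.32 and the neonatal Fc receptor gene Fcgrt by 0.32 ± 0.07 (edgeR adjusted p = 0.0025 and 0.00101). In C26_REVERBa against C26_GFP hearts 2 of the 16 fell, where 3.45% of all tested genes did. Gas6 fell by 0.32 on the log2 scale and Vsig4, a complement receptor of resident macrophages, by 1.25 (edgeR adjusted p = 0.0307 and 0.0406), while the median of the 16 was 0.01. In C26_REVERBa against PBS_REVERBa hearts 5 of the 20 general macrophage genes rose, with a median of 0.41, and 2 of these 16, with a median of 0.23, where 4.05% of all tested genes rose. Without the libraries with high hepatocyte markers these counts were 3 and 1. The part of other heart cells in the values of the 16 genes, Gas6 and Fcgrt among them, was not tested.

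Of 20 further genes of monocytes and recruited macrophages only 7 had enough counts to be tested. In C26_GFP against PBS_GFP hearts 3 of the 7 rose, where 14.2% of all tested genes did, and the median was 0.40. Gpnmb, a membrane glycoprotein of lipid-laden macrophages, averaged 2.64 ± 1.54 CPM (SD, n = 10) in C26_GFP and 0.59 ± 0.31 CPM (SD, n = 4) in PBS_GFP hearts, a change of 2.15 ± 0.50 (edgeR adjusted p = 0.00175). Ly6c2, which marks classical monocytes, rose by 2.003 ± 0.49 and the osteopontin gene Spp1 by 2.62 ± 0.89 (edgeR adjusted p = 0.00262 and 0.0275). Without the libraries with high hepatocyte markers Spp1 did not pass (2.81 ± 1.12, edgeR adjusted p = 0.0716). In C26_REVERBa against C26_GFP hearts 2 of the 7 fell, Gpnmb by 1.25 on the log2 scale and the hyaluronan receptor gene Cd44 by 0.40 (edgeR adjusted p = 0.0215 and 0.0495), where 3.45% of all tested genes fell. The list's median was -0.52. Spp1 stood at -1.71 ± 0.56 and did not pass (edgeR adjusted p = 0.0583). Gpnmb and Spp1 were at a few CPM, and 1 C26_GFP heart had 6.79 CPM of Gpnmb and 1 had 10.04 CPM of Spp1.

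**Figure D4:**
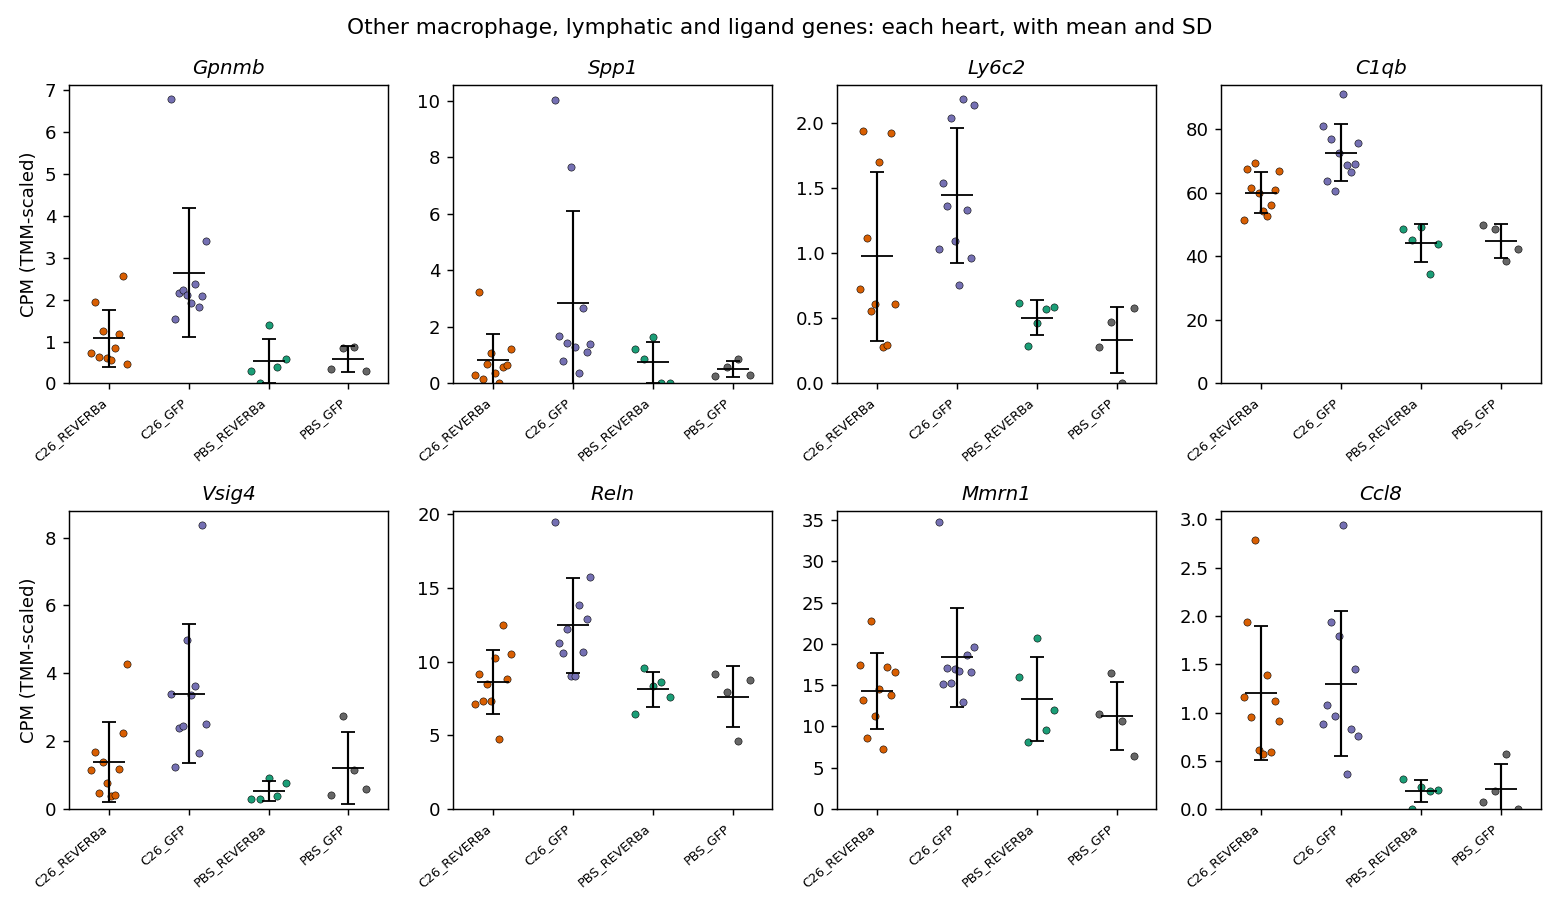
Level of 8 other macrophage, lymphatic and ligand genes in each heart, in CPM after TMM scaling, by group; points are hearts, lines are means and bars are SDs. C1qb is higher in C26_GFP hearts, at 72.6 CPM on average, than in PBS_GFP hearts, at 44.8 CPM, and single C26_GFP hearts stand far above the rest for Gpnmb and Spp1.

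Genes for ligands and sheddases of the 10 markers were also read. Of 14 tested, 3 rose and 1 fell in C26_GFP against PBS_GFP hearts, where 14.2% of all tested genes rose and 14% fell, with a median of 0.09. Ccl8 and Ccl7, which encode CC chemokines, rose by 2.96 ± 0.62 and 1.76 ± 0.61 (edgeR adjusted p = 0.000772 and 0.0303); Ccl7, a ligand of CCR2, was named after its values were seen. Both were rare: Ccl8 averaged 1.30 ± 0.75 CPM (SD, n = 10) in C26_GFP and 0.21 ± 0.26 CPM (SD, n = 4) in PBS_GFP hearts. Has1, a synthase of hyaluronan, the ligand of LYVE1, rose by 2.999 ± 0.81 (edgeR adjusted p = 0.00643). Adam17, a protease that sheds many surface proteins, CSF1R among them, had 46.9 ± 5.28 CPM (SD, n = 10) in C26_GFP and 66.0 ± 2.18 CPM (SD, n = 4) in PBS_GFP hearts, without overlap (as for 6.31% of all genes in this direction) and with a change of -0.49 ± 0.08 (edgeR adjusted p = 3.9e-05). In C26_REVERBa against C26_GFP hearts 1 of 14 rose and none fell, where 3.75% of all tested genes rose. That gene was Has3, another hyaluronan synthase, with 10.95 ± 2.70 CPM in C26_REVERBa and 7.12 ± 1.78 CPM in C26_GFP hearts (SD, n = 10 each), and its change was 0.59 ± 0.14 (edgeR adjusted p = 0.0143). Has3 also averaged 14.8 ± 1.86 CPM (SD, n = 5) in PBS_REVERBa and 8.36 ± 1.45 CPM (SD, n = 4) in PBS_GFP hearts, without overlap (as for 0.859% of all genes in this direction), at 0.82 ± 0.21, which did not pass (edgeR adjusted p = 1). Both ligands of CSF1R and the ligand of CX3CR1 were also looked up after the values had been seen. In C26_GFP against PBS_GFP hearts Csf1 stood at -0.16 ± 0.17, Il34 at 0.02 ± 0.15 and Cx3cl1 at -0.11 ± 0.14 (edgeR adjusted p = 0.511, 0.953 and 0.588).

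Lyve1 also marks lymphatic endothelium, so lymphatic genes were set beside it. Of 6 tested, 2 rose in C26_GFP against PBS_GFP hearts, where 14.2% of all tested genes did, Reln by 0.66 ± 0.20 and Pdpn by 0.56 ± 0.21 (edgeR adjusted p = 0.0139 and 0.0475). In C26_REVERBa against C26_GFP hearts 1 of 6 fell, again Reln, by 0.54 on the log2 scale (edgeR adjusted p = 0.0272), where 3.45% of all tested genes fell. The median log2 change of the 6 was 0.42 in C26_GFP against PBS_GFP hearts, against 0 over all genes. It was -0.10 in C26_REVERBa against C26_GFP hearts, against 0.00 over all genes. Prox1, the transcription factor that defines the lineage and that cardiomyocytes also express, and Flt4, its VEGF receptor, were looked up after their values were seen. They stood at 0.01 ± 0.13 and 0.11 ± 0.11 in C26_GFP against PBS_GFP hearts (edgeR adjusted p = 0.962 and 0.499) and at 0.05 ± 0.10 and -0.05 ± 0.08 in C26_REVERBa against C26_GFP hearts (edgeR adjusted p = 0.808 and 0.762). The summed level of the lymphatic list was between 141.7 and 196.7 CPM in C26_REVERBa, 157.1 and 220.7 CPM in C26_GFP, 140.5 and 185 CPM in PBS_REVERBa and 143.3 and 170.5 CPM in PBS_GFP hearts. Of the 7 lymphatic genes in the table, 6 had counts in each library, and Nts had none in 8 libraries. The part of lymphatic endothelium in the Lyve1 values was not tested.

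F13a1 is also a platelet gene. None of 6 tested platelet and megakaryocyte markers passed in any of the 4 comparisons. Their summed level was between 4.16 and 37.9 CPM in C26_REVERBa, 6.98 and 50.4 CPM in C26_GFP, 3.19 and 16.5 CPM in PBS_REVERBa and 4.07 and 30.8 CPM in PBS_GFP hearts. The median log2 change of the 6 was 0.04 in C26_GFP against PBS_GFP and 0.10 in C26_REVERBa against C26_GFP hearts. It was -1.04 in PBS_REVERBa against PBS_GFP and 1.16 in C26_REVERBa against PBS_REVERBa hearts. The part of platelets in the F13a1 values was not tested. Of the 8 platelet genes, 3 had counts in each library and 5 had none in some.

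Fibroblast genes were also read. Of 8 fibroblast markers 3 rose in C26_GFP against PBS_GFP hearts, the proteoglycan gene Dcn by 0.67 ± 0.12, the growth factor receptor gene Pdgfra by 0.48 ± 0.10 and Dpt by 0.59 ± 0.17 (edgeR adjusted p = 0.000222, 0.000467 and 0.0107), where 14.2% of all tested genes rose. The median of the 8 was 0.03, against 0 over all genes. In C26_REVERBa against C26_GFP hearts 1 of 8 fell, Pdgfra, by 0.24 on the log2 scale (edgeR adjusted p = 0.0355), where 3.45% of all tested genes fell. The fibroblast sum was between 970.6 and 1647 CPM in C26_REVERBa, 1085 and 1652 CPM in C26_GFP, 911.5 and 1454 CPM in PBS_REVERBa and 953.6 and 1205 CPM in PBS_GFP hearts. The mast cell list ran the other way. Its median was -0.65 in C26_GFP against PBS_GFP hearts, where 14% of all tested genes fell, and 0.83 in C26_REVERBa against C26_GFP hearts, where 3.75% rose. Kit, the receptor of stem cell factor, was the only one of 4 tested to pass, at -1.81 ± 0.17 and 0.94 ± 0.14 in these comparisons (edgeR adjusted p = 4.41e-08 and 0.00136). The list's sum had medians of 11.59 CPM in C26_REVERBa, 7.01 in C26_GFP, 19.73 in PBS_REVERBa and 17.55 in PBS_GFP hearts. Neutrophil markers summed to between 2.79 and 24.5 CPM in C26_REVERBa, 2.99 and 11.4 CPM in C26_GFP, 2.49 and 4.06 CPM in PBS_REVERBa and 2.15 and 5.45 CPM in PBS_GFP hearts. The highest neutrophil sum was that of C26_REVERBa replicate 9, and the next in its group was 10.6 CPM. B cell markers had too few counts for any of 6 to be tested. Whether these cells contributed to the values of the 10 markers was not tested.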

How the data were processed

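Total RNA of about 200 mg of heart per mouse was sequenced as 50 bp paired-end reads after a stranded library preparation, per the labels' protocols. The authors' deposited file is a matrix of unnormalized counts by gene, with gene lengths and mm10 coordinates, per the file headers. STAR 2.4.2a and DESeq2 1.24.0 appear in the submitters' processing notes without a role; how and on which strand reads were counted is not given in these sources. One column of the table matched no sample label and was not used (1 column).

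Genes were kept by filterByExpr in edgeR 4.0.16 (minimum count 10, minimum total 15; R 4.3.3, limma 3.58.1), scaled by TMM and tested in 1 quasi-likelihood fit of all 4 groups, checked on simulated counts. Correlations used log2 CPM with a prior count of 2 and 100000 resamples. Group membership came from the labels. No 2 libraries agreed within sampling noise (406 pairs, lowest chi-square per degree of freedom 2.64). Promoter letters were searched in the 250 bases before each start. Alternatives covered scaling, DESeq2 1.42.0, filters, the replicate number as a block, covariates, the threshold and single libraries left out; the removal of libraries with high hepatocyte (above 50 CPM) or T and NK cell sums (above 10 CPM) was added after seeing the data. Replicate numbers only name the hearts. The genes named were all 10 markers, up to 3 genes per list with the smallest p in C26_GFP against PBS_GFP and in C26_REVERBa against C26_GFP, and the 3 nearest genes per marker, of which some are given; Csf1, Il34, Cx3cl1, Ccl7, Prox1 and Flt4 were looked up after their values were seen. The markers and lists were chosen with earlier results of these data known.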

Additional observations from a re-analysis of the deposited data

Results flagged for a closer look

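In 40 sets of 4 to 10 hearts (10 genes in 4 groups) the highest and the lowest heart were compared with the spread of the others by Dixon's 95% limit, which chance passes in about 1 of 20 sets. The test picked out 2 hearts. Csf1r in PBS_GFP replicate 4 stood at 31.7 CPM, below the other 3 hearts of that group. Lgals3 in C26_GFP replicate 1 stood at 17.3 CPM, above the other 9 hearts of that group. C26_GFP replicate 1 also had the highest summed level of general macrophage markers among the 29 libraries, 844.1 CPM, and the lowest cardiomyocyte sum, 33860 CPM, and its epicardial and mesothelial sum of 57.4 CPM was the highest of its group, whose median was 26.7 CPM. Their part in its Lgals3 value was not tested.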

How the results depend on the processing

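Low counts limit the values of genes at a few CPM or less, and 4 or 5 saline hearts limit the comparisons without a tumour. Outside the single-library removals, 645 of the recomputed values kept their direction and side of the threshold, 7 newly passed, 10 no longer passed and 28 changed sign; with single libraries left out the numbers were 1391, 3, 5 and 51. No sign change had a call on either side (0). The causes were not tested.

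The replicate number as a block does not pair the hearts: over the 10 pairs of C26_REVERBa and C26_GFP hearts the correlation of deviations had a median of -0.11, between -0.346 and 0.216, with 2 pairs over 0.1. With the block, 1 marker was lower in C26_REVERBa than in C26_GFP hearts instead of 2 (Lgals3 -1.32, edgeR adjusted p = 0.0525), and Lyve1 in C26_REVERBa against PBS_REVERBa hearts was 0.54 (edgeR adjusted p = 0.0849). That marker count was also 1 with only the 2 groups fitted and 4 at an adjusted p under 0.1, 0 without the libraries with high hepatocyte markers, 1 without those with high T and NK cell markers (Ccr2, with Lyve1 and Lgals3 no longer passing), and ran between 1 and 3 with single libraries left out. Markers higher in C26_GFP than in PBS_GFP hearts numbered 5 to 6 with single libraries left out, and those higher in C26_REVERBa than in PBS_REVERBa hearts 3 to 4. Without the libraries above 10000000 counts, 1 pair of markers passed in each tumour group: Lyve1 with Lgals3 in C26_REVERBa hearts and Mrc1 with F13a1 in C26_GFP hearts, instead of 0. No C26_REVERBa library is above 10000000 counts, so r and p of the first pair did not move; its adjusted value was computed jointly with the C26_GFP pairs.

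Over all genes, 931 were called in C26_REVERBa against C26_GFP hearts, 291 with the block, 327 with only the 2 groups, 1709 at an adjusted p under 0.1, 70 without the libraries with high hepatocyte markers, 38 without those with high T and NK cell markers (both fewer samples, chosen after seeing the data) and 295 to 1778 with single libraries left out. For C26_REVERBa against PBS_REVERBa hearts these were 935, 450 with the block, 1593 at 0.1 and 476 to 1201 with single libraries left out. For C26_GFP against PBS_GFP hearts 3642 were called, 1972 without the libraries above 10000000 counts and 2790 to 4138 with single libraries left out. For PBS_REVERBa against PBS_GFP hearts 0 were called by edgeR (530 at an unadjusted p under 0.05), 1 by DESeq2, 1 with only the 2 groups and 0 to 1 with single libraries left out. For the interaction edgeR called 0 (1357 unadjusted) and DESeq2 15.

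All sign changes were of log2 values that did not pass. For the interaction, Cx3cr1 became -0.0046 with RLE factors, -0.0075 without a filter, -0.0034 with a mean of at least 1 CPM, -0.0992 with depth class and -0.006 with the atrial level as covariate. Mrc1 became 0.007 with upper quartile scaling, 0.0126 with depth class, 0.0041 with the atrial level 0.0192 without the high atrial and 0.0253 without the high T and NK cell libraries, where Cx3cr1 was -0.1314. Cd163 became -0.0303 without the deep libraries. For C26_REVERBa against C26_GFP, Cx3cr1 became 0.009 with the block, 0.1467 with depth class, 0.1776 without the deep, 0.1005 without the high atrial and 0.0117 without the high hepatocyte libraries, and Csf1r -0.0126 without the high T and NK cell libraries. For PBS_REVERBa against PBS_GFP, Lgals3 became 0.0961 with only the 2 groups and 0.0727 without the deep libraries, F13a1 0.0438, Cd68 0.0544 and Cx3cr1 0.2458 with depth class, Mrc1 0.1943, F13a1 0.1109, Cd68 0.3651 and Cx3cr1 0.1295 without the deep libraries, and Cx3cr1 0.0167 without the high atrial libraries.

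With single libraries left out, lowest and highest values for the interaction were -0.3014 and 0.0031 for Ccr2, -0.3163 and 0.1035 for Cd68, -0.2395 and 0.2635 for Cx3cr1, -0.2711 and 8e-04 for Lyve1, and -0.1396 and 0.0735 for Mrc1. For PBS_REVERBa against PBS_GFP they were -0.3077 and 0.1078 for Cd68, -0.296 and 0.2029 for Cx3cr1, -0.2552 and 0.0363 for F13a1, and -0.1069 and 0.1018 for Mrc1. For C26_REVERBa against C26_GFP they were -0.1247 and 0.0409 for Cx3cr1 and -0.0868 and 0.0082 for Mrc1, and for C26_REVERBa against PBS_REVERBa -0.0526 and 0.1896 for Folr2.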
